A study of Mus musculus with 6 samples.

Results

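The liver of male 129/Sv mice after 2 months of alcohol was measured on 2 of the 6 arrays of the series. These are the arrays labelled as 2-month treatment, and both carry the same pair of RNA pools with the dyes exchanged. The study asked how liver gene expression changes while mice drink alcohol for 1, 2 or 4 months. At each time RNA from 6 alcohol-fed mice was combined into an alcohol pool and RNA from 6 control mice into a control pool. Mice were 6 to 8 weeks old at the start. The alcohol group had free access to a liquid diet with 4% ethanol, and the control group received a diet of equal calories in which maltose dextran took the place of the ethanol. All mice were first accustomed to the control diet. The arrays are Agilent 2-colour arrays with 41174 different probes, of which 31872 (77.4%) had a signal well above background for both pools on each of the 2-month arrays. These 31872 probes cover 17178 genes with a current symbol, and the ratios below are taken over them. The sample is 1 pool against 1 pool hybridized 2 times, so the spread between the arrays is technical. These arrays do not measure the spread between mice, and no test can be made from them at 2 months alone. In such bulk RNA, fewer cells of a type and less RNA per cell cannot be told apart.

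Ethanol is oxidized in hepatocytes by alcohol dehydrogenases and by the cytochrome P450 enzyme CYP2E1, and the acetaldehyde formed is oxidized by aldehyde dehydrogenases. Liver also responds to diet and foreign compounds through nuclear receptors. The constitutive androstane receptor (CAR) and the pregnane X receptor (PXR) switch on P450 genes of the Cyp2b, Cyp2c and Cyp3a families, and the fatty acid sensor PPAR-alpha switches on Cyp4a genes and the fasting hormone Fgf21. Insulin and growth hormone set a further layer: insulin holds down Igfbp1, and the pulses of growth hormone in males keep a set of male-predominant liver genes on and a set of female-predominant genes off.

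For every probe the log2 ratio of the alcohol pool over the control pool was taken on each array, and the mean of both arrays was used. A probe is called raised or lowered here when the mean is at least 2-fold and both arrays lie on the same side of 0. By this rule 45 probes were raised, which is 0.141% of the 31872, and 31 were lowered, which is 0.0973%. They belong to 31 raised and 24 lowered named genes, and 3 raised and 3 lowered probes have no current symbol. None of the 76 was saturated. On both arrays separately the 2-fold mark was passed by 23 of the raised and 16 of the lowered probes. The call is a rule of size with no test, and the probes nearest to it on either side had mean log2 ratios of 1.001 and 0.991 for raised and -1.001 and -0.994 for lowered.

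The dye left a clear trace. Over the 31872 probes the ratios of the arrays correlated at r = -0.30 (Spearman -0.36), a description across probes with shared dye effects, and only 35.2% of probes had the same sign on both. The part of the ratio that turned with the dye (the difference of the arrays divided by 2) had an SD of 0.27 on the log2 scale, against 0.20 for the mean. This part reached 2-fold in 116 probes, while the mean did so in 76. Averaging over the exchanged dyes removes an effect that is equal on both arrays. The calls therefore rest on probes for which both orientations point the same way, and among the 76 the median of the dye part was 0.23. In 36 of the 45 raised probes the ratio was higher with alcohol in Cy3, and in 24 of the 31 lowered probes it was further down with alcohol in Cy5.

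**Figure D1:**
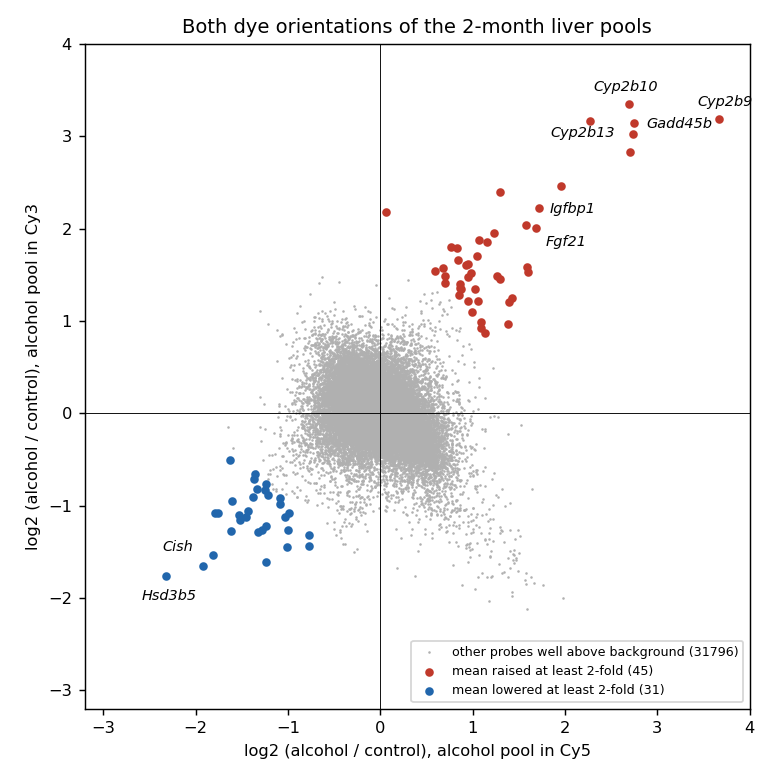
Log2 ratio of the alcohol over the control pool at 2 months on the array with alcohol in Cy5 (x axis) and on the array with alcohol in Cy3 (y axis), 1 point per probe well above background. The grey cloud tilts from upper left to lower right, which is the dye-dependent part, while the 45 raised (red) and 31 lowered (blue) probes lie in the quadrants where both arrays have the same sign.

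The strongest increases at 2 months were in the Cyp2b genes, P450 enzymes that metabolize drugs and steroids and are the classic targets of CAR. Cyp2b13 had log2 ratios of 2.74 with alcohol in Cy5 and 3.03 with alcohol in Cy3, a 7.38-fold higher level in the alcohol pool (mean 2.88 ± 0.21, SD of the 2 arrays). Cyp2b10 stood at 2.71 and 2.83 on the same arrays, 6.81-fold (2.77 ± 0.09). Both arrays of both genes were far above the 2-fold mark. For Cyp2b9 the brighter probe read 0.86 and 1.35 and the dimmer probe 3.67 and 3.19, so that the gene was raised 2.15-fold by the first and 10.8-fold by the second. The Cyp2b genes are close paralogs, and probes of 1 member may take up RNA of another. A second Cyp2b13 probe gave 0.45 and -0.12, which is no call. A probe with the array name NAP026914-1, unmatched to a gene, was raised 6.57-fold (2.27 and 3.16).

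The Cyp2b genes were higher with alcohol at all 3 times. The mean log2 ratios at 1 and 4 months were 3.40 and 2.36 for Cyp2b13 and 3.27 and 4.03 for Cyp2b10. A test over the 3 monthly mean ratios was made with limma on the 27900 probes well above background on all 6 arrays, with the pair of pools of a month as the replicate. It called 6 probes (0.0215%) at an adjusted p of 0.05, 5 raised and 1 lowered. The number called depended on the settings, with 0 under the loosest background filter (limma, 37922 probes, smallest adjusted p 0.12), 12 without 1 month and 16 without 4 months, so that each call over the 3 months given here and below is lost under that filter. Among them were Cyp2b10 (limma, effect 3.36 ± 0.22 SE, adjusted p = 0.027), Cyp2b13 (2.88 ± 0.18, adjusted p = 0.026) and the dimmer Cyp2b9 probe (adjusted p = 0.0067). The brighter Cyp2b9 probe had an adjusted p of 0.25 by limma, with 2.73, 1.11 and 1.87 at 1, 2 and 4 months. The mice of each month are separate pools, which makes these 3 values independent pairs, although the arrays of 2 and 4 months shared a slide and those of 1 month were on another.

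Of the 20 measured genes on a list of CAR targets, 5 were raised and none lowered, and 13 were above 0 and 1 below on both arrays. With 1 probe a gene the rule calls 0.14% of all 17178 genes raised and 0.0815% lowered. The median log2 ratio of the list was 0.27 (0.26 with alcohol in Cy5, 0.61 in Cy3), against 0.01 over all genes. The remaining CAR genes included Cyp2a5, a coumarin hydroxylase (0.68 and 1.57, raised 2.18-fold), and Gadd45b, a stress-induced regulator of growth and of CAR itself (1.16 and 1.85, 2.84-fold). Gadd45b had a dimmer probe with 2.75 and 3.15, 7.72-fold. Below the 2-fold mark lay Cyp2c29 (0.90 and 0.73), an epoxygenase of arachidonic acid, the glutathione transferase Gsta2 (0.98 and 0.70), and Alas1, the first enzyme of heme synthesis (0.24 and 1.04). The P450 reductase Por read -0.07 and 0.17 and the epoxide hydrolase Ephx1 -0.26 and 0.51, with arrays of opposite sign. The receptor itself, Nr1i3, read -0.20 and 0.39.

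Among 10 measured PXR targets 4 were raised, all of the Cyp3a family, whose main product in liver metabolizes a wide range of drugs. Cyp3a11 had 0.77 and 1.80 with alcohol in Cy5 and Cy3, Cyp3a16 0.83 and 1.79, Cyp3a44 0.95 and 1.48, and Cyp3a41a 1.06 and 1.21. Fold changes of the means ran from 2.20 for Cyp3a41a to 2.47 for Cyp3a16. These are again paralogs that a probe may not separate. Cyp3a13 (-0.19 and 0.38) and Cyp3a25 (-0.86 and 0.14) did not follow, and the receptor Nr1i2 stood at 0.12 and 0.47. The Cyp2c family was split: Cyp2c38 (0.98 and 1.52) and Cyp2c39 (0.59 and 1.54) were raised, whereas Cyp2c70, a bile acid hydroxylase, read -1.27 and -0.51. Over all 56 measured P450 genes of families 1 to 4, 12 were raised and none was lowered by the brightest probe, and 24 lay above and 13 below 0 on both arrays, with a median of 0.07 (0.14 with alcohol in Cy3 and near 0 in Cy5).

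Of 28 measured genes on the PPAR-alpha list 3 were raised (Cyp4a14, Cyp4a31 and Fgf21), 13 were above 0 on both arrays and none was below. Cyp4a14, which hydroxylates fatty acids at their end, had 1.58 and 2.04 (3.50-fold), and Cyp4a31 1.03 and 1.34 (2.28-fold). Cyp4a10 depended on the probe, from 0.10 and 1.25 on the brightest to 1.30 and 2.39 on the dimmest, the latter 3.60-fold and called over the 3 months (limma, adjusted p = 0.0081). At 2 months Cyp4a31 had a mean of 1.19, compared with 2.47 at 1 month and 1.18 at 4 months. Other targets were positive on both arrays below the 2-fold mark: Pdk4, which shuts off glucose oxidation (0.97 and 0.75), Pex11a, which divides peroxisomes (0.63 and 1.18), Acot1 (0.56 and 1.14) and Ehhadh (0.24 and 0.75). Cpt1a, which passes fatty acids into mitochondria, showed opposite signs (-0.30 and 0.85). Fabp1, the abundant fatty acid binding protein, gave 0.18 and -1.68, the widest disagreement in the list. The median of the list was 0.24 in the mean of both arrays, but 0.02 with alcohol in Cy5 and 0.56 with alcohol in Cy3.

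**Figure D2:**
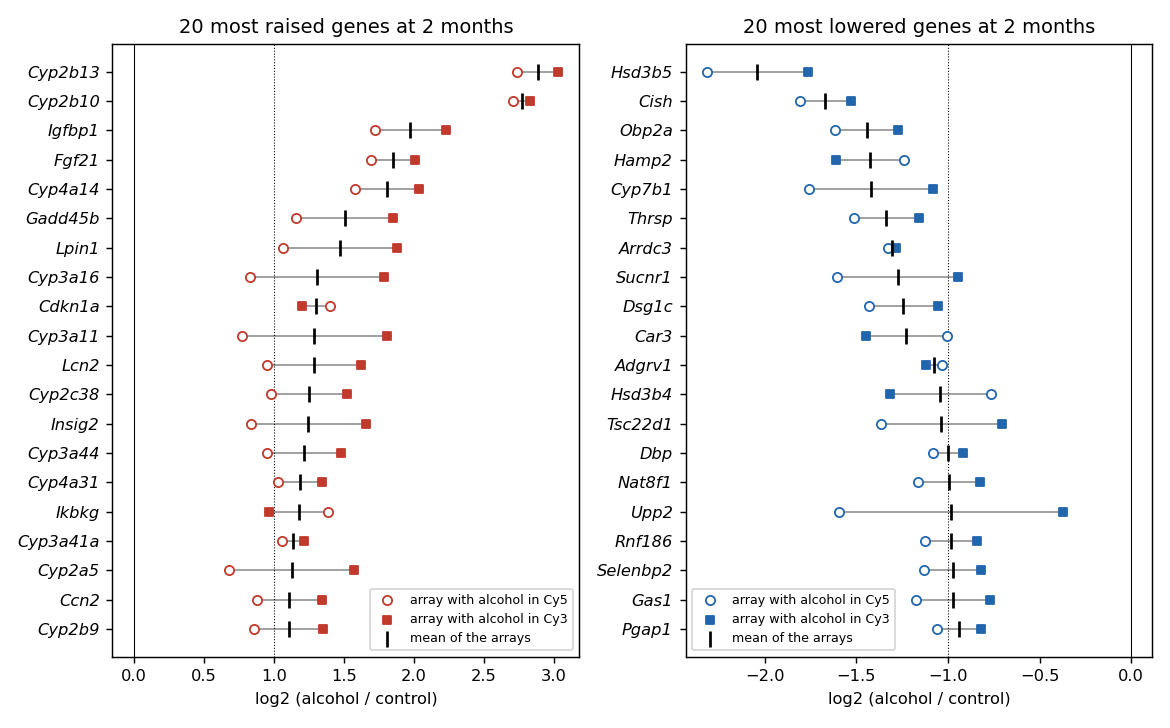
Log2 ratio of the alcohol over the control pool at 2 months for the 20 genes with the largest positive (left) and negative (right) mean ratio, 1 probe per gene. Open circles are the array with alcohol in Cy5, squares the array with alcohol in Cy3, ticks the mean, and dotted lines mark 2-fold. P450 genes fill 11 of the 20 rows on the left, and Hsd3b5 at -2.04 leads the right.

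Hormones and regulators of the fasted state were also among the raised genes, with Fgf21 on the PPAR-alpha list too. Igfbp1, a secreted protein that binds insulin-like growth factors, had log2 ratios of 1.72 and 2.23, 3.93-fold (1.97 ± 0.36). Fgf21, a hormone released by the fasted or stressed liver, had 1.69 and 2.01, 3.60-fold (1.85 ± 0.22). A second Fgf21 probe was well above background only in the alcohol pool, on both arrays, and there the level was at least 3.20-fold higher than in the control pool, a bound from the single channels over both dye orientations (ratios of 2.43 and 2.33). Lpin1, a phosphatidic acid phosphatase that also assists PPAR-alpha in switching on fat oxidation, had 1.07 and 1.88, 2.78-fold (1.47 ± 0.57), and its 4 probes ranged from 1.27 to 1.59. All 3 genes were well apart from 0 in both dye orientations.

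Of 16 measured genes of gluconeogenesis and fasting, these 3 were raised and none lowered, with 8 above and 1 below 0 on both arrays. The median was 0.30, from 0.02 with alcohol in Cy5 and 0.56 with alcohol in Cy3. Next came Pdk4 and the transcription factor Cebpd (0.59 and 0.94), then tyrosine aminotransferase Tat (0.41 and 0.81). The genes that make glucose did not stand out: Pck1 read 0.33 and 0.18, G6pc -0.09 and 0.18, and Fbp1 -0.51 and -0.03. The coactivator Ppargc1a, at -0.25 and 0.03, had opposite signs.

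Promoter sequences are shown for 4 of the genes because the named genes included known targets of a few signals. In the RefSeq table of mouse promoters (GRCm38.p6; 250 bases before to 50 after each start, 32851 different windows) 17 of the 20 most raised and 17 of the 20 most lowered genes had a window, some more than 1. On both strands, TGATGCAA, the core joined by ATF4 and C/EBP factors, was found in 0.895% of all windows and in windows of Fgf21, Cyp3a11 and Insig2. CAAAACA, the insulin response core bound by FOXO factors, was in 6.28% of windows and among the raised genes in Igfbp1 and Ikbkg, and among the lowered in Dbp, Sucnr1 and Thrsp. TTCNNNGAA, the core of STAT5 sites that mediate growth hormone signals, was in 8.30% of windows, in none of the raised genes, and in Cish, Dbp, Hamp2 and Tsc22d1 of the lowered. CACGTG (the E-box) was in 7.15% of windows and in Fgf21, Gadd45b and Tsc22d1, and TTATGNAA (the D-box) in 3.38% and in Cyp2a5 and Cyp2b10. TGACGTCA, the cAMP response core, was in 1.79% of windows and in none of these genes. No match overlapped another in the stretches printed. A match is a string of letters in the window and no measure of binding. Capitals mark the matches in these stretches, written 5′ to 3′ on the strand of the gene, with the E-box and the ATF4 core on the reverse strand in Fgf21 at chr7:45615491-45615740 (minus strand, 250 bases up to the start), the insulin response core in Igfbp1 at chr11:7197537-7197786 (plus strand, 250 bases up to the start), the insulin response core in reverse and a STAT5 core in Dbp at chr7:45705097-45705196 (plus strand), and a pair of STAT5 cores at the start of Cish at chr9:107296654-107296683 (plus strand).
Fgf21: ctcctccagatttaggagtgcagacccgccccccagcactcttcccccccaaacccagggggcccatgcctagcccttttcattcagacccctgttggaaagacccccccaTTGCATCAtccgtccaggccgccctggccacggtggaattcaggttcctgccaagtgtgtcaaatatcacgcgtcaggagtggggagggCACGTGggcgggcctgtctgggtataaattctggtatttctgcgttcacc
Igfbp1: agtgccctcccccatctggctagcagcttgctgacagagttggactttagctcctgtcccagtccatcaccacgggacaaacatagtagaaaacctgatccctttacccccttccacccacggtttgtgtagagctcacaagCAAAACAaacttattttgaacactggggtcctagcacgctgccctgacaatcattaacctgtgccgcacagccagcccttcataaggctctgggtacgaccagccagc
Dbp: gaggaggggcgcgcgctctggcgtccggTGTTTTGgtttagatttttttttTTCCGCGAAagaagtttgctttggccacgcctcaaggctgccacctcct
Cish: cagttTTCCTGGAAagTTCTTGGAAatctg

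Stress and growth-arrest genes were raised singly. Cdkn1a, the inhibitor of cyclin-dependent kinases known as p21, had 1.40 and 1.20, 2.46-fold (1.30 ± 0.14), with arrays close to each other. Of the 13 measured genes of the Gadd45 and p53 list only Gadd45b and Cdkn1a were raised, and Mdm2 (0.23 and 0.06), Phlda3 (-0.22 and -0.27) and Ccng1 (-0.41 and -0.02) were not. In the ATF4 list 2 of 18 were raised, Fgf21 and Ddit4, an inhibitor of the kinase mTORC1 (1.14 and 0.87, 2.00-fold). Trib3 (0.30 and 0.38) and Asns (0.02 and 0.30) stayed below. Ccn2, a matricellular growth factor, had 0.88 and 1.34 (2.16-fold), and no other of 23 immediate early genes was raised. Lcn2, an iron-trapping protein of the acute phase, had 0.95 and 1.62 (2.44-fold) while none of the other 23 acute phase genes was raised or lowered, among them Saa1 (-0.16 and -0.11) and Saa2 (-0.49 and -0.14). Insig2, which retains the sterol sensor in the endoplasmic reticulum, had 0.84 and 1.66 (2.37-fold) on its brightest probe, and its other 2 probes had means of 1.09 and 0.04. Ikbkg, a subunit of the kinase that activates NF-kappa-B, had 1.39 and 0.97 on its brightest probe (2.26-fold), and its other 3 probes ranged down to 0.01.

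The list of NRF2 targets, antioxidant and conjugating enzymes, held no called gene of 23, where the rule calls 0.14% of all genes raised and 0.0815% lowered. In this list 11 were above 0 on both arrays and 1 below, where 16.2% of all genes were above. Its median of 0.17 came from the array with alcohol in Cy3 (0.38), with -0.01 on the other. Nqo1, the quinone reductase, was even on the arrays (0.63 and 0.59, 1.53-fold). The enzymes of ethanol oxidation showed no call either. Cyp2e1 read 0.49 and -0.33 and Aldh2 -0.47 and 0.44, signs that turned with the dye. Of 14 measured, 7 lay below 0 on both arrays, Adh1 at -0.42 and -0.13, Adh4 at -0.76 and -0.34 and Aldh1b1 at -0.67 and -0.23 among them, and the median was -0.12 (-0.35 with alcohol in Cy5, -0.06 in Cy3).

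The lowest ratio belonged to a male-predominant liver gene. Hsd3b5, a steroid dehydrogenase of male mouse liver, had -2.32 with alcohol in Cy5 and -1.76 with alcohol in Cy3, a 4.11-fold lower level in the alcohol pool (-2.04 ± 0.39). Cyp7b1, which hydroxylates oxysterols, had -1.76 and -1.08, 2.67-fold lower (-1.42 ± 0.48), and was the 1 lowered probe called over the 3 months (limma, effect -1.54 ± 0.07 SE, adjusted p = 0.0067), with means of -1.55, -1.42 and -1.64 at 1, 2 and 4 months. Of 15 measured male-predominant genes these 2 were lowered and none raised, 8 lay below 0 on both arrays and 1 above, and the median was -0.30 (-0.44 with alcohol in Cy5, -0.37 in Cy3). Selenbp2 (-1.13 and -0.82) and Mup3, a major urinary protein (-0.67 and -0.86), fell short of the mark. The 1 gene above 0 on both arrays was Elovl3, a fatty acid elongase (0.36 and 0.80).

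On the female-predominant list 5 of 23 genes were raised, and all 5 are P450 genes already described (Cyp2b9, Cyp2b13, Cyp3a16, Cyp3a41a and Cyp3a44). The median was 0.23 (0.39 with alcohol in Cy5, 0.16 in Cy3), with 13 above and 2 below 0 on both arrays. Outside the P450 family, the peroxisomal transporter Abcd2 had 0.55 and 1.23, the transcription factor Tox 0.55 and 0.73 and the repressor Cux2 0.49 and 0.13, none of them called. Hamp2, which resembles the iron hormone hepcidin, went the other way with -1.24 and -1.61 (2.69-fold lower). Its neighbour Hamp, the hepcidin gene, read 0.53 and 0.72.

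Growth hormone signalling genes were mixed. Cish, a feedback inhibitor that STAT5 induces, had -1.81 and -1.53, 3.18-fold lower (-1.67 ± 0.20), and was dim in both pools. Socs3 read -0.54 and -0.40, Socs2 0.12 and -0.25 and the receptor Ghr -0.76 and -0.06. For Igf1 the brightest probe read -0.41 and 0.35, and a dim probe -1.28 and -1.26. Of the 19 measured genes of this axis Igfbp1 was raised and Cish lowered. Igfbp2 and Igfbp3, which also bind these growth factors, read -0.22 and 0.51 and -0.07 and -0.01.

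A gene of fatty acid synthesis was lowered. Thrsp, which promotes fat synthesis, had -1.51 and -1.16, 2.52-fold lower (-1.34 ± 0.25). It was the 1 gene called of 20 in the fatty acid synthesis list, in which 8 lay below and 3 above 0 on both arrays and the median was -0.08 (-0.30 with alcohol in Cy5, 0.05 in Cy3). Others below 0 on both arrays did not reach 2-fold. Srebf1, the transcription factor of this pathway, read -0.98 and -0.53, the desaturase Scd1 -0.75 and -0.65, Acly -0.73 and -0.25 and Fasn -0.60 and -0.11.

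Further genes were lowered. Obp2a, an odorant binding protein, had -1.62 and -1.27 (2.72-fold lower), Arrdc3, an arrestin-domain protein, -1.33 and -1.28 (2.47-fold), and Sucnr1, the receptor for succinate, -1.60 and -0.94 (2.42-fold). Car3, an abundant carbonic anhydrase, had -1.01 and -1.45 (2.34-fold), and its dimmer probe -1.08 and -0.57. Dsg1c, a desmosome cadherin, had -1.43 and -1.06, and Adgrv1, a large adhesion receptor, -1.03 and -1.12 on its brightest probe. The 4 measured probes of Adgrv1 ranged from -1.32 to 0.05, and their mean was -0.60. Dbp, a clock-driven transcription factor, was just inside the mark (-1.08 and -0.92, 2.00-fold lower). Of the other 20 clock genes measured none was called, though Nr1d1 (-0.41 and -0.46) and Nr1d2 (-0.55 and -0.32) were also below 0 on both arrays, and Clock (0.59 and 0.35) and Per1 (0.23 and 0.48) above. The hour at which the livers were taken was not used here.

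**Figure D3:**
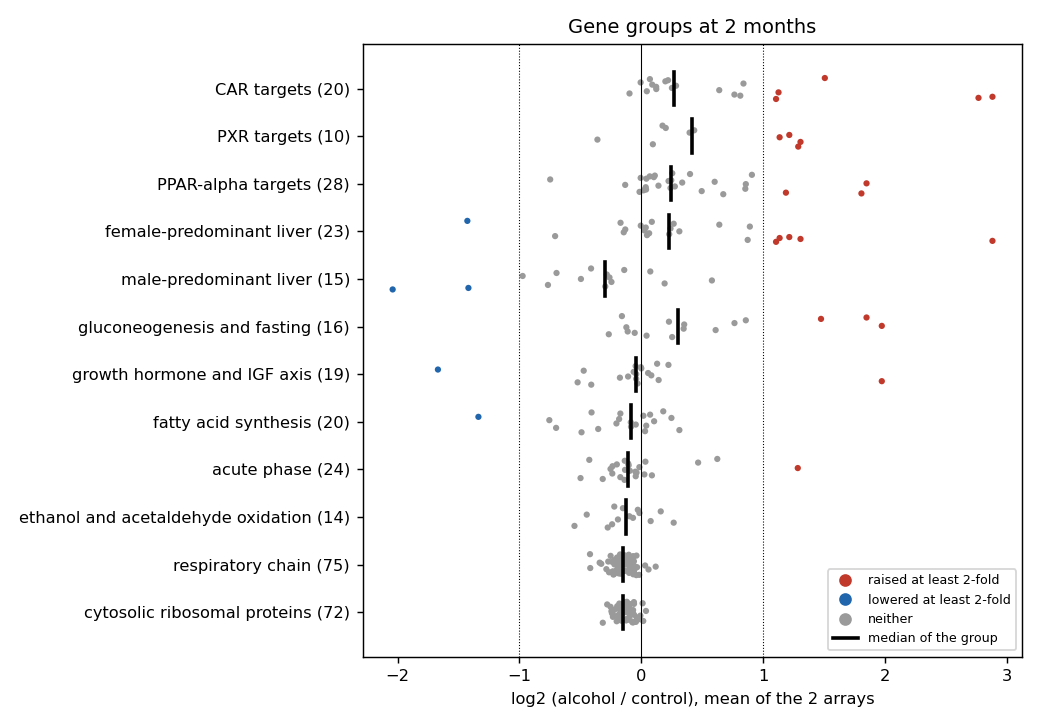
Mean log2 ratio at 2 months of each measured gene (points) in 12 gene groups, with the number of genes in brackets and the median of the group as a black bar. Red and blue points are raised and lowered at least 2-fold, and dotted lines mark 2-fold. CAR, PXR and PPAR-alpha targets spread to the right, while respiratory chain and ribosomal protein genes lie in a narrow band, from -0.42 to 0.12 and from -0.32 to 0.04, with medians of -0.15.

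A pair of large groups of housekeeping genes lay slightly below 0 in the mean, through the array with alcohol in Cy5. There the median was -0.33 for the ribosomal protein and -0.32 for the respiratory chain genes, against 0.02 for both with alcohol in Cy3, and 43 and 41 genes had arrays of opposite sign. Of 72 cytosolic ribosomal protein genes 29 were below 0 on both arrays and none above, with a median of -0.15 and a lowest value of -0.32 (Rpl10). Of 75 respiratory chain genes 33 were below and 1 above, with a median of -0.15. Over all genes 16.8% were below 0 on both arrays. These are bright genes: 64 of the 72 and 49 of the 75 were among the 1718 brightest genes, whose median was -0.02. With normexp and loess in place of the deposited processing the medians were -0.14 and -0.13. No gene of these groups reached 2-fold.

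Several further lists held no called gene or 1, where the rule calls 0.14% of all genes raised and 0.0815% lowered. Over all genes 16.8% lay below and 16.2% above 0 on both arrays. Of 26 interferon-induced genes none was called, 10 were below 0 on both arrays and 2 above, and the median was -0.09 (-0.17 with alcohol in Cy5, -0.01 in Cy3). Igtp, an interferon-induced GTPase, read -0.40 and -0.48. Of 18 endoplasmic reticulum chaperones and stress genes none was called and 6 were below 0 on both arrays, such as the disulfide isomerase Pdia6 (-0.39 and -0.35), while Herpud1, of the degradation pathway, read 0.49 and 0.72. Of 11 heat shock genes 6 were below and 1 above, with a median of -0.19 (-0.31 with alcohol in Cy5, -0.09 in Cy3), and Hsph1 read -0.82 and -0.45. In the bile acid list of 20 genes Cyp7b1 was the 1 lowered, and the rate-limiting enzyme Cyp7a1 read -0.05 and 0.13. Fatty acid oxidation genes were even, 6 above and 5 below of 29.

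Markers of the cell types in liver did not move by 2-fold. None of the measured genes on lists for hepatocytes, T cells, B cells, macrophages, neutrophils, erythroid, endothelial and stellate cells and cholangiocytes was called. As the rule calls only 0.14% of all genes raised and 0.0815% lowered, short lists would mostly hold no call. Hepatocyte markers such as Alb (-0.27 and 0.34) and Apob (-0.01 and 0.33) were well above background in both pools. The summed level of the 9 hepatocyte genes was 237 to 248 in the alcohol and 225 to 251 in the control pool, in units of the 75th percentile of the channel. For the 12 macrophage genes the sums were 42.8 to 48.3 and 44.5 to 47.7, for the 8 neutrophil genes 12.5 to 15.1 and 12.3 to 12.9, and for the 17 stellate genes 69.4 to 78.9 and 70.9 to 71.4. These ranges overlapped between the pools. Those of the 7 adipose genes did not, with 21.9 to 25.8 in the alcohol and 19.97 to 20.16 in the control pool. Each range spans only the 2 arrays of 1 pool, and how often such ranges part between like pools was not measured. The median of the adipose genes was 0.14 (-0.13 with alcohol in Cy5, 0.21 in Cy3), and 0.08 with normexp and loess. Among these 7 genes the fatty acid binding protein Fabp4 read 0.39 and 0.12 and the lipid droplet protein Cidec 0.73 and 0.02. Adipoq, Plin1, Retn, Cfd and Lep had arrays of opposite sign. The part of these genes in the other results was not tested. Of macrophage genes, the scavenger receptor Marco was at 0.60 and 0.62. Of the pancreas acinar list 18 of 25 genes on the array were well above background, with a median of 0.02 and sums of 35.01 to 42 and 37.2 to 38.0, and the globins Hba-a1 (-0.25 and 0.04) and Hbb-bt (-0.43 and 0.12) had arrays of opposite sign. Alas2, the erythroid enzyme of heme synthesis, read -1.05 and -0.46, below 0 on both arrays.

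For several genes the call depended on the probe. In 7 of the 31 raised and 10 of the 24 lowered genes, the called probe was not the brightest one. Tubb2a, a tubulin, had probes with means of 2.21 and 1.59 and a brightest probe at 0.70. Myc had dim probes down to -1.43 and a bright one at 0.00, the heat shock gene Hspa1a ranged from -1.78 on a dim probe to -0.39, and Egfr from -1.13 to 0.01 over 6 probes. Tsku had 1.37 on 1 probe and 0.21 on the brighter. For the raised probe of Sin3b, the whole mean came from 1 array (0.06 and 2.18). Of the genes with several measured probes, all probes were called in 6 of 20 raised and in none of 12 lowered genes.

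The called probes were then set beside their ratios at 1 and 4 months. Of the 45 raised probes 40 were also measured at 1 month, where 24 were above 0 and 9 below on both arrays, and all 45 were measured at 4 months, where 39 were above and none below. The median ratio of these probes was 0.40 at 1 month and 1.15 at 4 months. Of the 31 lowered probes 25 were measured at 1 month, with 18 below and 6 above 0 on both arrays, and 29 at 4 months, with 25 below and none above. Their medians were -0.30 and -0.78. As the members were chosen at 2 months, and the 4-month arrays shared the slide with the 2-month arrays, these counts are a description. There were 10 raised and 2 lowered probes that passed the same rule at all 3 times. Under 1.5-fold at both other times were 9 of the 40 raised and 7 of the 24 lowered probes measured on all 6 arrays.

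The difference between 2 months and the mean of 1 and 4 months was tested with limma on the 27900 probes, and no probe was called (0%), with 984 at an unadjusted p under 0.05 and a smallest adjusted p of 1.00. The design has 1 residual degree of freedom. In simulated data the same fit recovered 0.0% of differences of 1 on the log2 scale, 0.2% of 2 and 21.8% of 3. No call could thus be foreseen for differences of the size given below, and none of them is judged by this test. The genes below are therefore those with the largest difference, described without a call. Lpin1 was 1.73 above the mean of the other months, at -1.07, 1.47 and 0.56 for 1, 2 and 4 months. Fgf21 was 1.54 above (-0.17, 1.85 and 0.78), Ikbkg 1.17 (0.02, 1.18 and -0.01), Cdkn1a 1.17 (-0.13, 1.30 and 0.39), Insig2 1.05 (0.04, 1.25 and 0.35) and Elovl3 1.36 (-0.37, 0.58 and -1.20). Hsd3b5 was 1.84 above because it was lower at the other times (-2.93, -2.04 and -4.83).

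In the other direction, Hamp2 was 1.33 below (1.09, -1.43 and -1.29) and Car3 1.30 below (1.25, -1.23 and -1.10), and for both the 2-month value was close to that of 4 months. Upp2, a uridine phosphorylase, was 1.09 below (0.24, -0.99 and -0.03), with arrays far apart at 2 months (-1.60 and -0.37). Serpina6, the corticosteroid carrier of plasma, was 1.04 below (0.73, -0.67 and 0.00). Cyp2b9 was 1.19 below by its brightest probe. The globins Hbb-bt (1.97, -0.15 and 0.63) and Hba-a1 (1.51, -0.10 and 0.61), which mark red cells, were near 0 at 2 months and positive at 1 month. The trypsinogen Try5 (-0.10, 0.02 and 2.20) was near 0 at 2 months and high at 4 months. Igfbp1 was 0.72 above the mean of the other months (-0.23, 1.97 and 2.74), but its difference from 4 months alone, on the same slide, was -0.76. Against 4 months alone, on the same slide, the difference had the same sign for all 20 genes furthest from that mean. This is largely built in, as the difference from 4 months is part of the value by which the genes were chosen. For Car3 and for Hamp2 it was only -0.13.

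**Figure D4:**
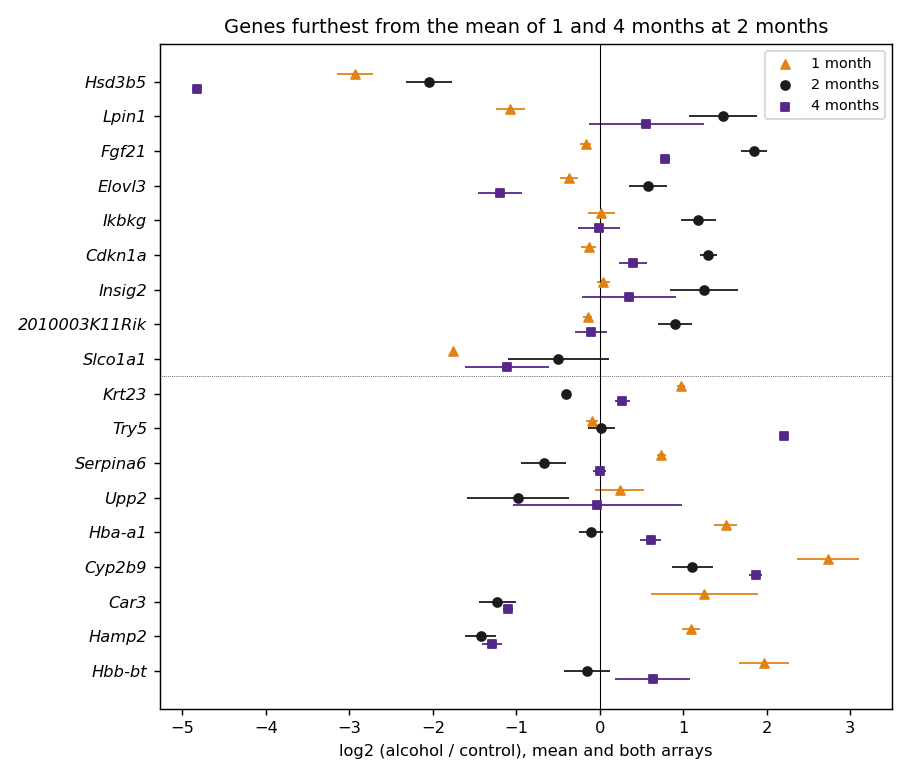
Log2 ratio of the alcohol over the control pool at 1 (triangles), 2 (circles) and 4 months (squares) for 9 of the 10 genes furthest above (top) and 9 of the 10 furthest below (bottom) the mean of 1 and 4 months at 2 months. Lines join both arrays of a month. Lpin1 runs from -1.07 at 1 month to 1.47 at 2 months, and Hamp2 and Car3 cross 0 the other way.

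Levels in each pool are given here beside the ratios. They are log2 signals relative to the 75th percentile of the channel, averaged over both arrays, and an alternative added after the data were seen. The 1-month arrays were on another slide, so a difference in level from 1 month cannot be told apart from a difference between slides. At 2 months Fgf21 was at 1.14 in the alcohol and -0.70 in the control pool, and its control pools at 1 and 4 months were at -1.49 and -1.33. The 2-month alcohol pool was the highest of the 6. Igfbp1 was at 3.36 in the alcohol pool and 1.39 in the control pool, with controls of 1.89 and 1.30 at 1 and 4 months. For Lpin1 the 2-month levels were 4.00 and 2.53, while the 1-month alcohol pool was the lowest of all at 1.20. Cdkn1a was at 1.27 in the 2-month alcohol pool and -0.02 in its control.

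Hamp2 was lower in both 2-month pools (0.82 with alcohol, 2.25 in the control) than in the 1-month pools (4.22 and 3.12). For Car3 the 2-month control pool was at 5.44, the highest of the 3 controls, and the alcohol pool at 4.21. Thrsp was at 5.89, 5.35 and 4.54 in the controls of 1, 2 and 4 months, and the 2-month alcohol pool, at 4.01, was the lowest. For Hsd3b5 the controls were at 2.93, 1.64 and 0.92. Its ratio was closest to 0 at 2 months and furthest from 0 at 4 months, where the control was lowest. Obp2a was at 0.07 in the 2-month control pool, whereas at 1 month it was not well above background on all channels. Each month has 1 control pool, so the spread of these levels between control pools was not measured, and the 1-month arrays were on another slide.

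**Figure D5:**
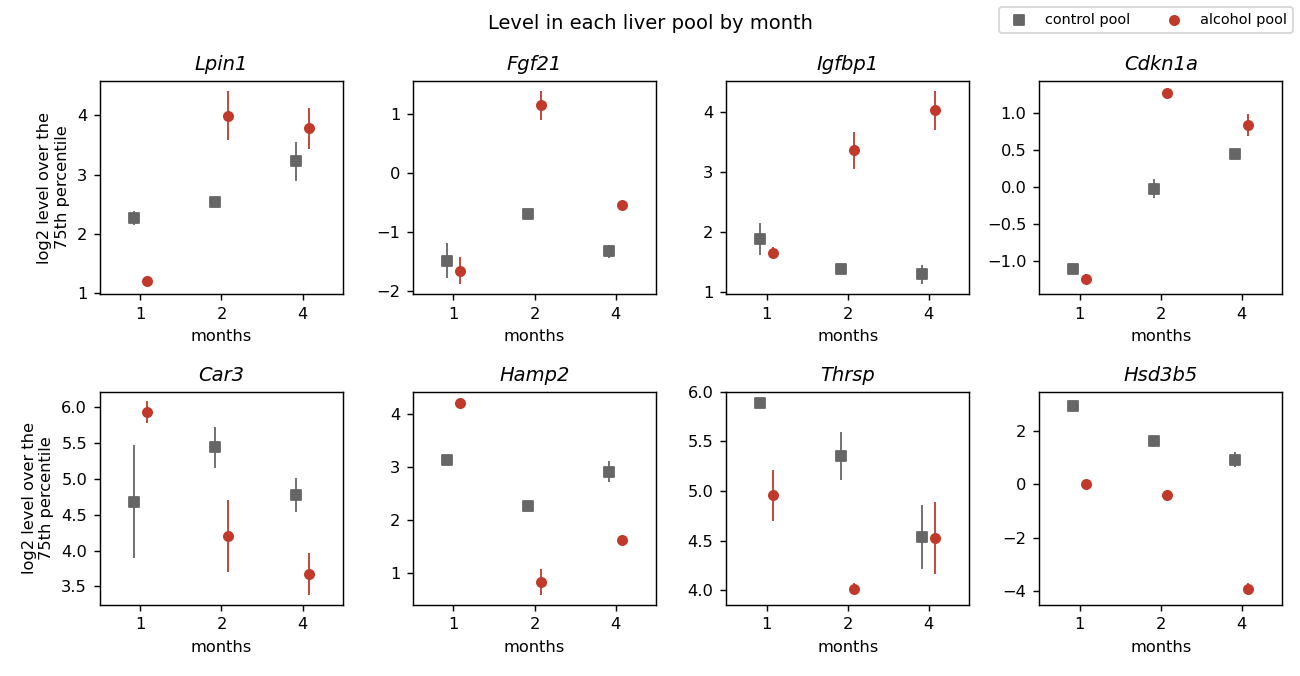
Log2 level of 8 genes in the alcohol (red circles) and control pool (grey squares) at 1, 2 and 4 months, scaled to the 75th percentile of its channel. Points are means of both arrays and lines join the arrays. Fgf21 peaks in the 2-month alcohol pool at 1.14, and Thrsp is lowest in the 2-month alcohol pool at 4.01.

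Outside the ratios, 160 probes were well above background on both arrays in the alcohol pool and on neither in the control pool, against 8 the other way. In 152 and 8 of these the limit on the ratio was above 1, and it reached 2-fold in 1, the Fgf21 probe. After it came Jun, a subunit of the transcription factor AP-1, at least 1.40-fold higher in the alcohol pool, the chemokine gene Ccl12 at least 1.39-fold higher, and Zfp976, a zinc finger gene, at least 1.41-fold lower. The control channel in Cy5 had the smallest share of spots well above background on the 2-month arrays, 79.0% against 82.3% to 83.2% in the other 3 channels, and its part in the unequal counts was not tested.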

How the data were processed

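Liver RNA pools were compared on Agilent 4x44K 2-colour arrays. The authors extracted the images with Feature Extraction 9.1.1.1, and the deposited files give every spot a processed signal intensity per dye, after background subtraction and dye normalization, and a log10 ratio with its modeled error. A deposited table of log10 ratios (alcohol over control) served as an alternative. Here control spots were left out, log2 of the alcohol over the control processed signal was averaged over spots and then over the dye pair, with no further normalization. A ratio was used where both channels were well above background on both arrays. Arrays give no counting interval, and only 1 pair of pools per month limits the precision.

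Probes were named through a RefSeq table (GRCm38.p6): 22951 of 41174 by accession, 6659 by current and 3109 by older symbol, and 8455 kept the array's name. For a gene with several probes the brightest is given. Genes named are the 20 with the largest positive and negative ratio, the 10 furthest either way from 1 and 4 months, up to 10 above background in 1 pool only, those the paper names and members of the gene lists. These genes, the 55 lists and the tests were chosen with earlier results of these data known. limma 3.58.1 (R 4.3.3, Benjamini-Hochberg) tested the 3 monthly means. The fits were tested on simulated data. Tables and plots were made in Python 3.11.15 with pandas 2.3.3, numpy 2.4.6 and matplotlib 3.10.9. Alternatives were normexp (offset 50) with loess, the deposited table, each array alone, error weights, median centring, other filters and thresholds, and each month left out. Limits for dim probes used loess and Aquantile channels. Results of a few genes are not reported here.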

Additional observations from a re-analysis of the deposited data

Results flagged for a closer look

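For 3 genes both arrays moved at least 1.5-fold one way at 2 months and at least 1.5-fold the other way at 1 month, which set them apart. Lpin1 had a mean log2 ratio of 1.47 at 2 months and -1.07 at 1 month, where its arrays read -1.24 and -0.90. Car3 had -1.23 at 2 months and 1.25 at 1 month (1.89 and 0.61). Hamp2 had -1.43 at 2 months and 1.09 at 1 month (0.99 and 1.20). The difference between these 2 months was not tested for single genes. No group had 4 samples, so no search for outlying samples was made.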

How the results depend on the processing

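The 45 raised and 31 lowered probes became 40 and 19 with normexp and loess, 93 and 92 with no filter on dim probes, 152 and 269 at a 1.5-fold threshold and 23 and 16 when each array had to pass 2-fold. From a single array, 107 to 145 probes were raised and 93 to 257 lowered, since the dye part then stays in the ratio. The deposited table gave 45 and 31, error weights 42 and 32, median centring 45 and 29, the looser background filter 54 and 37, and leaving out the sign rule 45 and 31. Over the 3 months, limma called 6 probes, 11 with normexp and loess, 12 without 1 month, 16 without 4 months, 4 without 2 months and 0 with the loosest background filter (37922 probes, 3012 at an unadjusted p under 0.05). The smallest adjusted p lay between 0.00066 and 0.12 over these alternatives. The difference of 2 months from the others gave 0 calls under the alternatives run, which with 1 residual degree of freedom says nothing about stability. Of 52 named genes none reversed. With normexp and loess 4 moved by more than the SD of their arrays, to -1.30 for Cish, 2.67 for Cyp2b10, -1.24 for Arrdc3 and -0.69 for Pgap1, and with the mean over probes 7 did, among them Cyp2b13 to 1.53, Ikbkg to 0.62 and Adgrv1 to -0.60. The causes were not tested. No paired analysis was possible because the replicate numbers mark the dye orientation of 1 pair of pools. The pools give no spread between mice, and low signals limit the dimmest genes.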
